A study of Mus musculus with 16 samples.

Results

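The genes described here are the 8 enzymes and partners that write, copy and remove cytosine methylation in DNA: Dnmt1, Dnmt3a, Dnmt3b, Dnmt3l, Tet1, Tet2, Tet3 and Uhrf1. They were taken by name from a table of 27807 genes, each name matched 1 row, and all 8 passed the filter of a mean of at least 10 normalised counts that 16124 genes passed. Polyadenylated RNA was sequenced from mouse ES cells and from their differentiation to neuronal precursors, with WT (Taf4+/+) and Taf4a-/- cells compared at every stage. Taf4a encodes a subunit of the general transcription factor TFIID, and the Taf4a-/- cells carried a constitutive null allele with an internal deletion of exons. The stages were undifferentiated ES cells, embryoid bodies before retinoic acid (EB4), embryoid bodies after the first day of retinoic acid (EB5), and a later stage in retinoic acid (EB8) that is labelled as neural precursor cells in both genotypes. Each of the 8 genotype and stage groups held 2 libraries, 16 in all. The ES cells came from blastocysts of C57Bl6J heterozygous crosses, with 2 independent lines per genotype, and were kept with LIF on feeder fibroblasts. The labels do not say which line a library came from, so the p-values measure the spread between these libraries only.

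Dnmt3a and Dnmt3b place methyl groups on unmethylated CpG sites, and Dnmt3l, which has no catalytic activity of its own, stimulates them. Dnmt1 copies methylation onto the new strand after replication, and Uhrf1 brings it to hemimethylated sites. The Tet proteins oxidise methylcytosine, which can then be lost by dilution or replaced through base excision repair. In ES cells Tet1, Tet2, Dnmt3b and Dnmt3l are known to be abundant, and epiblast-like cells leaving the naive state are known for high Dnmt3a and Dnmt3b.

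The promoter sequences of the 3 members that moved furthest from ES to EB8 in WT cells show how unlike their CpG content is. RefSeq lists 15 transcription starts for the 8 genes in its GRCm38.p6 table, and the 250 bases before each start matched the mm9 genome at a single place. These windows held between 2 and 51 CpG dinucleotides, against a median of 6 over the 32851 windows of the table. The lines below give 2 of the 3 windows of Dnmt3l and the windows of Dnmt3b and Tet3, 5′ to 3′ on the gene's own strand at their mm9 positions, with each CG in capitals.
Dnmt3l, window 1, chr10:77512337-77512586 (+ strand): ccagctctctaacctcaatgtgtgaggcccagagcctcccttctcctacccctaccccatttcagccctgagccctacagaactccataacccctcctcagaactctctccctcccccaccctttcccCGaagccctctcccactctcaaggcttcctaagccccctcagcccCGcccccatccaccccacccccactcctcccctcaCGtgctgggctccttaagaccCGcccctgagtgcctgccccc
Dnmt3l, window 2, chr10:77517830-77518079 (+ strand): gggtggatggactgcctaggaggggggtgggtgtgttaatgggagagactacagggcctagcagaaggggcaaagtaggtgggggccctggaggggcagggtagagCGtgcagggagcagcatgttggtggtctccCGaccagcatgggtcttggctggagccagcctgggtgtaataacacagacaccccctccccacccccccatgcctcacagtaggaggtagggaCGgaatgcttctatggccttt
Dnmt3b, chr2:153474935-153475184 (+ strand): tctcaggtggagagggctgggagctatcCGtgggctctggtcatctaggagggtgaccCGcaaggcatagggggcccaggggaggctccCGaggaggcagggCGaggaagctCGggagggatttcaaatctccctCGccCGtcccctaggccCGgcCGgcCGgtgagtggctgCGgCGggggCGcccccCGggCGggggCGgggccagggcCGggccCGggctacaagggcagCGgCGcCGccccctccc
Tet3, chr6:83391673-83391922 (- strand): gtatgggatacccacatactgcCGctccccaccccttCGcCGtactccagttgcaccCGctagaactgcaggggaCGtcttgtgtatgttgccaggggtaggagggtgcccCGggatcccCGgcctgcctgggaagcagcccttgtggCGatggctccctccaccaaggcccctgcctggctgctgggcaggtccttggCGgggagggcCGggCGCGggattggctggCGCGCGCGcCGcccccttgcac
The Dnmt3l windows held 4 and 3 CG, that of Dnmt3b 21 and that of Tet3 17. The other Dnmt3l window, which overlaps exons of Dnmt3l and Aire, held 5. Both Dnmt3l windows printed lie in introns of Dnmt3l, the Dnmt3b window ends just before the annotated gene, and the Tet3 window overlaps an exon of the non-coding gene B230319C09Rik on the opposite strand. Searched on both strands, TATAAA was in 0 of the 15 windows (12.4% of all windows), CCAAT in 5 (33.8%), GGGCGG in 11 (32.7%) and CACGTG in 2 (6.02%). A match of letters is a description of the sequence only.

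Library depth was 22442118 to 40711826 reads counted in genes. Each ES library held at least 32631020 reads and no embryoid body library more than 27685306, so stage and any batch that goes with depth cannot be told apart in the comparisons from ES cells. Taf4a itself was counted at 1591 to 1960 in the WT libraries and 1973 to 2400 in the Taf4a-/- libraries, and a count over the whole gene does not resolve the deleted exons, so it does not check the genotype labels. In WT cells 8 of 8 pluripotency genes fell from ES to EB8 and 5 of 6 measured neural progenitor genes rose. Over all genes in that comparison, 22.8% passed the limma test as lower and 24.0% as higher. The neuron list did not rise steadily with the stages. Its 4 measured genes summed to 7937 and 8942 in WT ES cells, 2215 and 1549 at WT EB5 and 13824 and 17755 at WT EB8. In the Taf4a-/- EB8 libraries the neural progenitor genes summed to 5006 and 4945 normalised counts, against 29673 and 26805 in WT EB8, and Fabp7 was at or under 10 in both. The 7 feeder fibroblast markers summed to 1033 and 2650 normalised counts in the WT ES libraries and 209 and 494 in the Taf4a-/- ES libraries, with Lum at or under 10 in both genotypes and Postn in Taf4a-/-. Of the 6 tested, 0 passed between the genotypes in ES cells by limma or edgeR, 3 were lower at an unadjusted p under 0.05 by either tool, and DESeq2 called 3 lower (the collagen genes Col1a1, Col1a2 and Col3a1). At each later stage 0 passed by limma or edgeR, 1 was lower at an unadjusted p under 0.05, and DESeq2 called 1 lower (Dcn). The part of feeder cells in the results was not tested. By the median over the genes of a chromosome, relative to all libraries, single libraries stood apart on chromosomes that hold no member: chromosome 8 in WT EB4 replicate 1 (log2 0.41), chromosome 11 in Taf4a-/- EB8 replicate 1 (0.27) and chromosome X in Taf4a-/- EB4 replicate 2 (0.55). Changes of the members that lose their call without one of these libraries are given with the value without it. In a bulk sample, fewer cells of a type and less RNA per cell cannot be told apart.

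**Figure D1:**
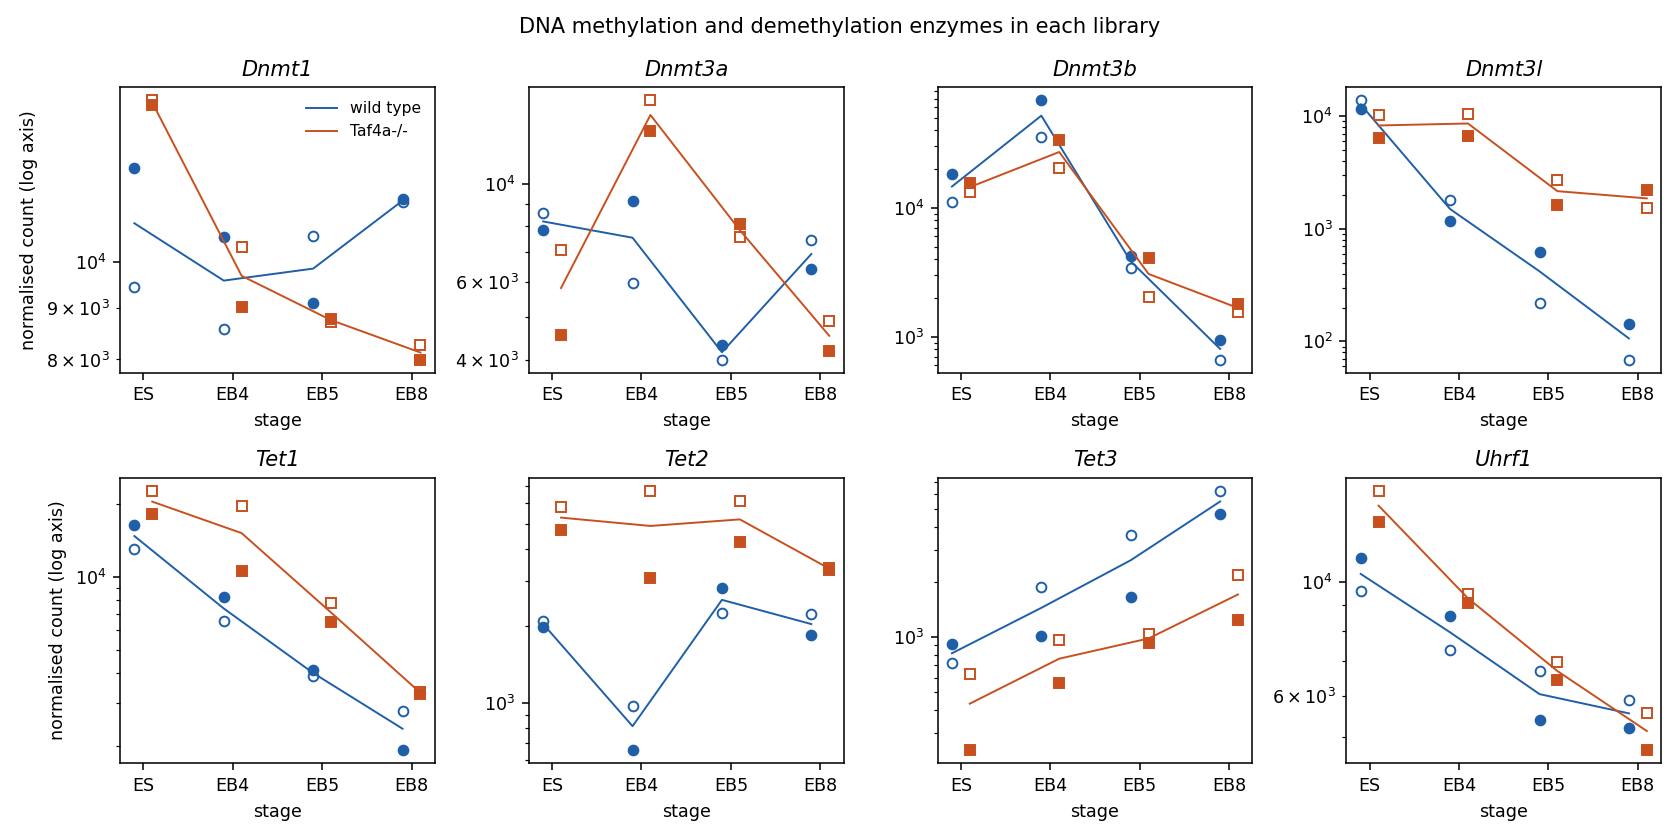
Normalised count (log axis) of each member in every library at ES, EB4, EB5 and EB8. Blue circles are WT and orange squares Taf4a-/- (filled, replicate 1; open, replicate 2), and lines join the group means. Dnmt3l fell at every step in WT to 144 and 68.8 at EB8 while the Taf4a-/- libraries stayed at 1519 or above, and Tet3 lay lower in Taf4a-/- than in WT at each stage.

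During WT differentiation the members followed different courses. Dnmt3b rose to a peak at EB4 and then fell below its ES level, Dnmt3l and Tet1 fell from ES to EB8, Uhrf1 fell less, and Tet3 rose. Between ES and EB8, 5 of the 8 members passed the test in WT (1 higher, 4 lower), where 46.8% of all genes did (24.0% higher, 22.8% lower). In Taf4a-/- cells 6 passed (1 higher, 5 lower), where 37.7% of all genes did (19.7% higher, 18.0% lower). The median log2 change over the members was -0.57 in WT and -1.14 in Taf4a-/-. The test throughout is limma on log2(normalised count + 1) with Benjamini-Hochberg adjustment over 16124 genes, and passing means an adjusted p under 0.05. Fewer members passed in the single steps. In WT, 4 members passed from ES to EB4 (16.5% of all genes), 3 from EB4 to EB5 (3.73%) and 2 from EB5 to EB8 (10.4%). In Taf4a-/- cells the counts were 1 (3.5%), 1 (2.51%) and 0 (0.738%), with 3 of the 8 at an unadjusted p under 0.05 in the last step. Libraries with the same replicate number deviated together among the Taf4a-/- groups and among the WT embryoid bodies. The WT ES libraries did not deviate with the WT embryoid bodies of the same number. With that number as a block within genotype, a setting chosen after the data were seen, the counts were 4, 4 and 1 for the Taf4a-/- steps. For the last 2 WT steps they were 4 and 5.

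Between the genotypes, Dnmt3l, Dnmt3a and Tet2 were higher in Taf4a-/- cells at EB4, and by EB8 Dnmt3l was 18.2-fold higher while Tet3 and Dnmt1 were lower. No member passed in ES cells (0.0% of all genes), with 4 of the 8 and 1846 of all genes at an unadjusted p under 0.05. By edgeR on the recovered reads the count in ES cells was also 0, and DESeq2 gave 1, Tet2. At EB4, 3 members passed, all higher in Taf4a-/- (6.12% of all genes passed, 2.75% higher). At EB5, 2 passed, both higher (4.34%, 2.17% higher). At EB8, 3 passed, 1 higher and 2 lower (22.9%, 10.4% higher and 12.5% lower). The share at EB8 is thus 3 of 8 against 22.9% of all genes. Of all genes at EB8, 1677 were higher and 2020 lower, and under upper-quartile rescaling, which moved the median change of all genes to 0.11, this split was 2278 and 1615. Whether the course from ES to EB8 differed between the genotypes was tested directly, and 2 members passed, Dnmt3l with the higher and Dnmt1 with the lower change in Taf4a-/- (7.29% of all genes, 3.85% higher and 3.44% lower). In the same test 0 members passed from ES to EB4 or from EB4 to EB5 (0.0% of all genes in each), where 3 and 1 had an unadjusted p under 0.05, and 0 from EB5 to EB8 (0.781%), where 3 did. For these 3 steps edgeR gave 0, 0 and 0 and DESeq2 gave 2, 0 and 1. With the replicate block within genotype the counts between the genotypes were 1, 5, 5 and 6 from ES to EB8, and 2 for the difference in the step from EB5 to EB8.

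**Figure D2:**
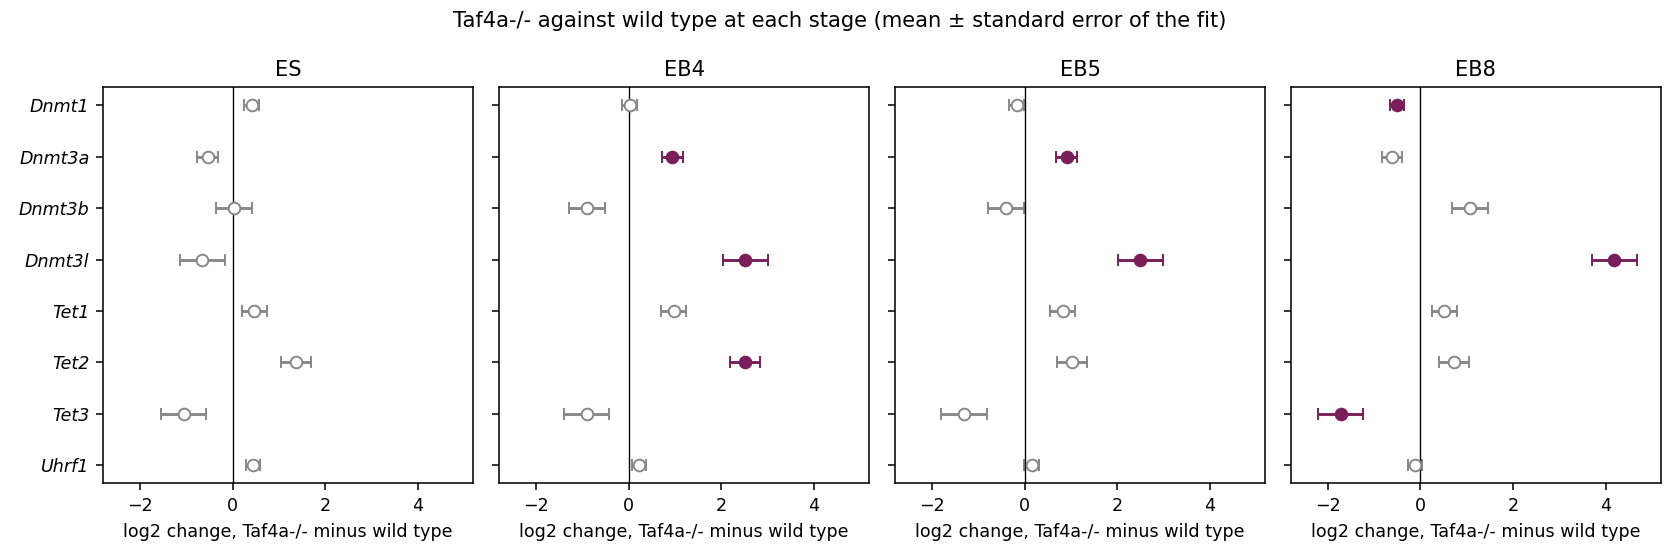
Log2 change of each member between Taf4a-/- and WT at each stage (x axis, Taf4a-/- minus WT), with bars of 1 standard error of the limma fit. Filled points passed the test: 0 members at ES, Dnmt3a, Dnmt3l and Tet2 at EB4, Dnmt3a and Dnmt3l at EB5, and Dnmt1, Dnmt3l and Tet3 at EB8.

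Dnmt3b (mm9 chr2:153475186-153513466, + strand), a de novo methyltransferase, had the widest swing of the catalytic enzymes. Its WT normalised counts were 18216 and 11013 in ES cells, 68132 and 35340 at EB4, 4260 and 3437 at EB5, and 947 and 665 at EB8. No WT library of a stage overlapped those of the stage before it. In WT cells Dnmt3b thus rose by 1.79 ± 0.39 (log2, SE) from ES to EB4 (limma adjusted p = 0.0103), fell by 3.68 ± 0.39 from EB4 to EB5 (0.000184) and fell by 2.27 ± 0.39 from EB5 to EB8 (0.00337). The rise to EB4 no longer passed without WT ES replicate 2 (1.43) or without WT EB4 replicate 1 (1.32), with adjusted p from 0.000102 to 0.109 over all alternatives. Over the whole course the fall was 17.8-fold in WT (log2 -4.16 ± 0.39, limma adjusted p = 8.61e-06). The Taf4a-/- counts were 15608 and 13301, 33654 and 20473, 4109 and 2033, and 1790 and 1557 at the same stages. There the same peak was seen at lower height, and the EB8 libraries stayed above those of WT. The step from EB4 to EB5 passed in Taf4a-/- cells (log2 -3.18 ± 0.39, limma adjusted p = 0.000904), as did ES to EB8 (8.62-fold lower, log2 -3.11 ± 0.39, adjusted p = 0.000151). The rise to EB4 (0.87) passed there only with the replicate block (adjusted p = 0.0322, and 0.0322 to 0.632 over the alternatives). In the main limma fit Dnmt3b did not pass between the genotypes at any stage. The log2 change was 0.02 in ES cells, -0.90 at EB4, -0.40 at EB5 and 1.07 at EB8. At EB8 every Taf4a-/- library was above every WT library, with a 95% interval of 0.23 to 1.92 and a limma adjusted p of 0.0652 (0.00330 to 0.292 over the alternatives). It passed in 7 of 17 alternatives. Among these were upper-quartile rescaling (1.21), quantile normalisation (1.29) and DESeq2 (1.06), which used no block. The replicate block within genotype changed the call at EB4 (adjusted p = 0.0198; 0.0198 to 0.677 over the alternatives) and at EB8 (0.00333), and that of the difference between the courses from ES to EB8 (1.05, adjusted p = 0.0397; 0.0397 to 0.502).

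Dnmt3a (mm9 chr12:3806007-3914443, + strand), the other de novo methyltransferase, peaked in Taf4a-/- embryoid bodies. Its counts there were 13150 and 15430 at EB4 and 8119 and 7578 at EB5, against 9125 and 5962 and then 4315 and 3997 in WT. At both stages every Taf4a-/- library was above every WT library. The difference was 1.93-fold at EB4 (log2 0.95 ± 0.23, limma adjusted p = 0.0326) and 1.89-fold at EB5 (log2 0.92 ± 0.23, adjusted p = 0.0417). At EB4 it did not pass without WT EB4 replicate 2 (0.64) or without either Taf4a-/- EB4 replicate (1.07 and 0.83), and at EB5 once any 1 of the 4 libraries was left out (0.86 to 0.97), with adjusted p of up to 0.278 over the alternatives. In ES cells and at EB8 the order was the other way. The ES counts were 7843 and 8579 in WT and 4542 and 7069 in Taf4a-/-, and the EB8 counts 6394 and 7468 against 4175 and 4881. These 2 differences did not pass (log2 -0.53 and -0.61, limma adjusted p = 0.394 and 0.0687), though the EB8 difference did with the replicate block within genotype (0.0458; 0.0458 to 0.274 over the alternatives). Dnmt3a rose 2.51-fold from ES to EB4 in Taf4a-/- cells (log2 1.33 ± 0.23, adjusted p = 0.0136), which did not pass without Taf4a-/- ES replicate 1 (1.01) or without either EB4 replicate (1.45 and 1.21). With the replicate block within genotype it fell from EB4 to EB5 in both genotypes (log2 -0.83 in WT, -0.86 in Taf4a-/-; adjusted p = 0.0420 and 0.0424, and 0.0126 to 0.520 over the alternatives of both, with -1.14 in WT without WT EB4 replicate 2) and rose from EB5 to EB8 in WT (0.73, adjusted p = 0.0376, and 0.0261 to 0.284 over the alternatives). The difference between the genotypes in that last step was -1.53 ± 0.32 and just missed the threshold (limma adjusted p = 0.0506), which it passed with the block (0.0315; 0.00159 to 0.206 over the alternatives), as did that of Dnmt3b (1.48; 0.0358; 0.0358 to 0.773).

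Dnmt3l (mm9 chr10:77504692-77526367, + strand), the regulatory partner, had the largest change of the members from ES to EB8 in WT cells and the largest difference between the genotypes at EB8. The WT counts were 11536 and 13850 in ES cells, 1185 and 1811 at EB4, 621 and 217 at EB5, and 144 and 68.8 at EB8. Every step was a fall, with no overlap between the libraries of successive stages. WT cells at EB8 had 126-fold less than WT ES cells (log2 -6.97 ± 0.49, limma adjusted p = 1.44e-06), and the log2 change was -3.11 ± 0.49 from ES to EB4 (0.00250), -1.99 ± 0.49 from EB4 to EB5 (0.0440) and -1.87 ± 0.49 from EB5 to EB8 (0.0297). The middle step did not pass without WT EB4 replicate 1 (-2.30), WT EB4 replicate 2 (-1.69) or WT EB5 replicate 2 (-1.24), nor the last without WT EB5 replicate 1 (-1.12) or WT EB8 replicate 2 (-1.35), with adjusted p of up to 0.378 and 0.279 over their alternatives. In Taf4a-/- cells Dnmt3l was counted at 6356 and 10182 in ES cells, 6735 and 10490 at EB4, 1625 and 2693 at EB5, and 2206 and 1519 at EB8. Its fall there began after EB4, and the EB8 libraries lay about where those of EB5 did. The step from EB4 to EB5 in Taf4a-/- cells was -2.01 ± 0.49 (limma adjusted p = 0.0532; 0.0342 with the replicate block, and 0.00163 to 0.313 over the alternatives), and the whole change from ES to EB8 was 4.39-fold (log2 -2.14 ± 0.49, adjusted p = 0.00503).

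Between the genotypes Dnmt3l was 5.74-fold higher in Taf4a-/- cells at EB4 (log2 2.52 ± 0.49, limma adjusted p = 0.0154), 5.68-fold higher at EB5 (2.51 ± 0.49, 0.0196) and 18.2-fold higher at EB8 (4.19 ± 0.49, 0.000178). At all 3 stages the lowest Taf4a-/- library was above the highest WT library. In ES cells the order was reversed, with a log2 change of -0.65 that did not pass (95% interval -1.72 to 0.41, limma adjusted p = 0.656). The EB8 difference passed under each of its 17 alternatives, with log2 changes of 3.66 to 4.71. The EB4 difference did not pass without WT EB4 replicate 1 (2.21) or Taf4a-/- EB4 replicate 2 (2.20), nor the EB5 difference without WT EB5 replicate 2 (1.75) or Taf4a-/- EB5 replicate 2 (2.14), with adjusted p of up to 0.170 and 0.240 over the alternatives. The course from ES to EB8 differed between the genotypes by 4.84 ± 0.69 (log2, limma adjusted p = 0.00334), and 20 of 20 alternatives passed. Pluripotency markers moved alongside: the 8 genes of that list summed to 25385 and 29778 in the Taf4a-/- EB8 libraries and 1710 and 2094 in WT. Of the 8, 7 were higher (10.4% of all genes were) and none was at or under 10 in both libraries of either group. Their part in the Dnmt3l result was not tested. Exons of Dnmt3l share 67 bases with the gene Aire on the opposite strand, and reads there cannot be assigned to either gene with an unstranded kit; the same holds for 133 bases of Dnmt3a and Gm10485.

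Dnmt1 (mm9 chr9:20711650-20757317, - strand), the maintenance methyltransferase, changed little in WT cells. WT libraries had 12426 and 9456 in ES cells, 10609 and 8571 at EB4, 9100 and 10616 at EB5, and 11570 and 11479 at EB8. The Taf4a-/- libraries had 14364 and 14515, 9019 and 10371, 8787 and 8728, and 7995 and 8262. In Taf4a-/- cells the ES libraries were the highest and the EB8 libraries the lowest. The change from ES to EB8 was 0.09 ± 0.16 in WT (limma adjusted p = 0.672) and -0.83 ± 0.16 in Taf4a-/- (adjusted p = 0.00177), and the difference between these courses was -0.92 ± 0.22 (adjusted p = 0.0298). That difference did not pass without WT ES replicate 2 (-0.72), without either WT EB8 replicate (-0.91 and -0.92), without either Taf4a-/- ES replicate (-0.93 and -0.91) or without either Taf4a-/- EB8 replicate (-0.89 and -0.94), with adjusted p of up to 0.0893 over the alternatives. In the step from ES to EB4 the Taf4a-/- fall (-0.58) passed with the replicate block (adjusted p = 0.0447, and 0.0118 to 0.261 over the alternatives). At EB8 Dnmt1 was 1.42-fold lower in Taf4a-/- cells (log2 -0.50 ± 0.16, limma adjusted p = 0.0373). This did not pass once any 1 of the 4 EB8 libraries was left out (-0.48 to -0.53), nor under upper-quartile rescaling, where the median of all genes was 0.11 and Dnmt1 -0.36 (adjusted p = 0.0925, and 0.0155 to 0.144 over the alternatives). Of 12 S phase and proliferation genes, 2 were lower at EB8 (Mki67 and Top2a), where 12.5% of all genes were lower. Their list summed to 112788 and 117559 in WT and 87224 and 89994 in Taf4a-/-. Their part in the Dnmt1 result was not tested.

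Uhrf1 (mm9 chr17:56442744-56462909, + strand), which guides Dnmt1, fell in both genotypes. The WT counts went from 11098 and 9591 in ES cells through 8585 and 7352 at EB4 and 5389 and 6702 at EB5 to 5198 and 5896 at EB8, and the Taf4a-/- counts from 13073 and 14995 through 9101 and 9454 and 6428 and 6976 to 4702 and 5551. The fall from ES to EB8 was 1.86-fold in WT (log2 -0.90 ± 0.16, limma adjusted p = 0.000667) and 2.74-fold in Taf4a-/- (-1.45 ± 0.16, adjusted p = 6.43e-05). The difference between these did not pass (-0.56 ± 0.22, limma adjusted p = 0.147). With the replicate block the first step also passed in Taf4a-/- cells (-0.59, adjusted p = 0.0383, and 0.00872 to 0.303 over the alternatives). Between the genotypes Uhrf1 did not pass at any stage. At EB8 the change was -0.12 with a 95% interval of -0.46 to 0.23, and its sign turned under upper-quartile rescaling (0.03) and quantile normalisation (0.07).

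Tet1 (mm9 chr10:62267318-62361866, - strand), a methylcytosine dioxygenase known from pluripotent cells, fell between ES and EB8 in both genotypes. WT libraries had 16378 and 13003 in ES cells, 8221 and 6545 at EB4, 4100 and 3904 at EB5, and 1921 and 2795 at EB8. The Taf4a-/- libraries had 18166 and 22557, 10570 and 19623, 6467 and 7745, and 3281 and 3347, each group entirely above WT of the same stage. From ES to EB8 the fall was 6.30-fold in WT (log2 -2.65 ± 0.27, limma adjusted p = 1.40e-05) and 6.11-fold in Taf4a-/- (-2.61 ± 0.27, adjusted p = 4.64e-05). The WT step from ES to EB4 also passed (-0.99 ± 0.27, adjusted p = 0.0257), but not without WT ES replicate 1 (-0.83) or WT EB4 replicate 2 (-0.83; adjusted p of up to 0.140 over the alternatives). With the replicate block within genotype, Tet1 also fell from EB4 to EB5 (-1.02, adjusted p = 0.0320, and 0.00662 to 0.431 over the alternatives) and from EB5 to EB8 (-1.09, 0.0423, and 0.00825 to 0.476) in Taf4a-/- cells, and from EB5 to EB8 in WT (-0.79, 0.0428, and 0.0376 to 0.396). The genotypes differed by 0.47, 0.97, 0.82 and 0.52 on the log2 scale at ES, EB4, EB5 and EB8, and none of these passed. EB5 did with the replicate block within genotype (adjusted p = 0.0479; 0.0426 to 0.549 over the alternatives). The nearest was EB4, with a limma adjusted p of 0.0518, which came below 0.05 in 8 of 16 alternatives (0.00680 to 0.430), among them that without Taf4a-/- EB4 replicate 1 (1.42). Without that library the Taf4a-/- step from EB4 to EB5 was -1.47 and passed as well.

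Tet2 (mm9 chr3:133126643-133207354, - strand) was higher in every Taf4a-/- group than in WT, by most at EB4. The WT counts were 1981 and 2082 in ES cells, 653 and 969 at EB4, 2812 and 2234 at EB5, and 1843 and 2216 at EB8. The WT EB4 libraries were the lowest of all 16. Tet2 thus fell in WT from ES to EB4 (log2 -1.35 ± 0.32, limma adjusted p = 0.0143) and rose from EB4 to EB5 (1.65 ± 0.32, adjusted p = 0.0116). The fall did not pass without WT ES replicate 2 (-1.31) or WT EB4 replicate 1 (-1.07), nor the rise without WT EB4 replicate 1 (1.37), WT EB5 replicate 1 (1.49) or WT EB5 replicate 2 (1.82), with adjusted p of up to 0.0942 and 0.127 over the alternatives. The Taf4a-/- counts were 4729 and 5829, 3083 and 6714, 4256 and 6135, and 3312 and 3369 at the same stages. There the libraries of ES, EB4 and EB5 overlapped, and none of the steps passed. At EB4 Tet2 was 5.71-fold higher in Taf4a-/- cells (log2 2.51 ± 0.32, limma adjusted p = 0.00434), which did not pass without Taf4a-/- EB4 replicate 2 (1.95; adjusted p of up to 0.141 over the alternatives). In ES cells the log2 change was 1.37 ± 0.32, with an adjusted p of 0.121 by limma, 0.00506 by DESeq2 and up to 0.599 over the alternatives. At EB5 and EB8 it was 1.03 and 0.72 and did not pass (limma adjusted p = 0.0875 and 0.119). The 95% intervals of these differences (0.34 to 1.72 and 0.04 to 1.41) were on the same side of 0. All 3 passed with the replicate block within genotype (adjusted p = 0.0484 in ES cells, 0.0277 at EB5 and 0.0492 at EB8), with 0.0244 to 0.566 at EB5 and 0.0322 to 0.361 at EB8 over the alternatives. That block was chosen after the data were seen. The WT ES libraries did not deviate with the WT embryoid bodies of the same number, so the ES call rests on a block they do not follow.

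Tet3 (mm9 chr6:83312367-83391672, - strand), the family member known from differentiated and neural cells, rose where Tet1 fell. Its WT counts were 911 and 719 in ES cells, 1018 and 1868 at EB4, 1646 and 3604 at EB5, and 4707 and 6280 at EB8. From ES to EB8 this was a 6.71-fold rise (log2 2.75 ± 0.49, limma adjusted p = 0.000740), and the step from EB5 to EB8 (1.16) passed with the replicate block (0.0374, and 0.0374 to 0.673 over the alternatives). The Taf4a-/- counts were 241 and 625, 561 and 962, 925 and 1040, and 1243 and 2172. The rise from ES to EB8 in Taf4a-/- cells was 4.23-fold (2.08 ± 0.49, limma adjusted p = 0.00589), but it did not pass without Taf4a-/- ES replicate 1 (1.39) or Taf4a-/- EB8 replicate 2 (1.68; adjusted p of up to 0.0718 over the alternatives). In that ES library the genes of chromosome 6 together were at -0.25 (log2) against the mean of all libraries, the lowest of the 16, and the part of this in the Tet3 value was not tested. At each stage both Taf4a-/- libraries were below both WT libraries, with log2 changes of -1.06 in ES cells, -0.91 at EB4, -1.31 at EB5 and -1.73 at EB8. Of these the EB8 difference passed (3.31-fold lower, SE 0.49, limma adjusted p = 0.0241), but not without WT EB8 replicate 1 (-1.93), WT EB8 replicate 2 (-1.52) or Taf4a-/- EB8 replicate 1 (-1.32), with adjusted p from 0.00296 to 0.166 over the alternatives. The EB5 difference passed with the replicate block within genotype (adjusted p = 0.0310; 0.0310 to 0.582 over the alternatives). The courses from ES to EB8 did not pass for a difference between the genotypes (-0.67 ± 0.69, limma adjusted p = 0.591). Neuron markers moved alongside at EB8: the 4 measured genes of that list were all lower in Taf4a-/- cells by limma (12.5% of all genes). They summed to 1187 and 1448 against 13824 and 17755 in WT, with 0 of the 4 at or under 10 in both libraries of a group. By edgeR 3 of the 4 were lower. At EB4 and at EB5, 1 gene of the list (Tubb3) was higher in Taf4a-/- cells by limma and 0 were lower. The same list summed to 7937 and 8942 in WT ES cells, where the WT Tet3 counts were lowest. The part of the neuron markers in the Tet3 result was not tested.

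Divided by the merged exon length of each gene, the levels of the members could be ordered within a group. In WT ES cells the order from high to low was Dnmt3l (4248 ± 548 normalised counts per kb, SD, n = 2), Dnmt3b (2862 ± 998), Uhrf1 (2429 ± 250), Dnmt1 (2078 ± 399), Tet1 (999 ± 162), Dnmt3a (493 ± 31.3), Tet2 (221 ± 7.77) and Tet3 (73.5 ± 12.2). The libraries of Dnmt3b, Uhrf1 and Dnmt1 overlapped with their neighbour in this order, and the others did not. By WT EB8 the 2 maintenance genes led, with Dnmt1 at 2189 ± 12.2 per kb and Uhrf1 at 1302 ± 116, followed by Tet3 (495 ± 100), Dnmt3a (416 ± 45.6), Tet2 (221 ± 28.7), Tet1 (160 ± 42.0), Dnmt3b (158 ± 39.1) and Dnmt3l (35.6 ± 17.8). Tet3 overlapped with Dnmt3a there, and Tet1 with Dnmt3b. By this length Dnmt3l thus went from the first to the last place in WT cells and Tet3 from the last to the third. With the longest annotated transcript as length, Dnmt3a (716 per kb) came before Tet3 (504) at WT EB8. In Taf4a-/- EB8 cells Dnmt1 (1544 ± 35.8) and Uhrf1 (1204 ± 141) also led, but Dnmt3l came next (623 ± 163) and Tet3 was last (154 ± 59.3), and no neighbours overlapped. The longest transcript left these 4 places as they were, but turned the order of Tet2, Dnmt3b and Dnmt3a (364, 387 and 468 per kb).

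Within the Tet family the share of Tet1 was lower at EB8 than in ES cells in both genotypes, and the largest share at EB8 was that of Tet3 in WT and of Tet2 in Taf4a-/- cells, where the Tet2 count itself did not rise. Of the summed Tet counts per kb, Tet1 made up 77.1% ± 2.61 (SD, n = 2) in WT ES cells and 18.2% ± 1.25 at WT EB8, and Tet3 5.67% ± 0.22 and 56.5% ± 0.42. In Taf4a-/- cells Tet1 made up 69.4% ± 0.55 in ES cells and 30.5% ± 2.32 at EB8, Tet2 28.8% ± 0.38 and 49.1% ± 3.82, and Tet3 1.88% ± 0.92 and 20.5% ± 6.14. The EB8 libraries of the genotypes did not overlap in any of the 3 shares. The summed Tet level at EB8, by contrast, was 755 and 997 per kb in WT and 695 and 790 in Taf4a-/-, and overlapped. The shares were not tested and are given as values.

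Between the catalytic de novo enzymes, Dnmt3b made up 84.5% ± 5.39 of the summed per-kb level in WT ES cells, 95.6% ± 0.69 at EB4, 75.0% ± 1.83 at EB5 and 27.5% ± 7.12 at EB8. In Taf4a-/- cells its share was 88.9% ± 4.12, 85.3% ± 5.71, 54.5% ± 11.0 and 54.6% ± 5.17. WT libraries had the larger Dnmt3b share at EB4 and EB5 and the smaller share at EB8, without overlap at any of these 3 stages. The summed level of the pair at EB8 was 570 and 579 per kb in WT and 602 and 598 in Taf4a-/-. These shares depend on the gene length used: with the longest annotated transcript, the log2 ratio of Dnmt3b to Dnmt3a at EB8 went from -1.42 to -1.96 in WT and from 0.27 to -0.27 in Taf4a-/-, so that which of the pair is higher in Taf4a-/- cells at EB8 is not settled.

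**Figure D3:**
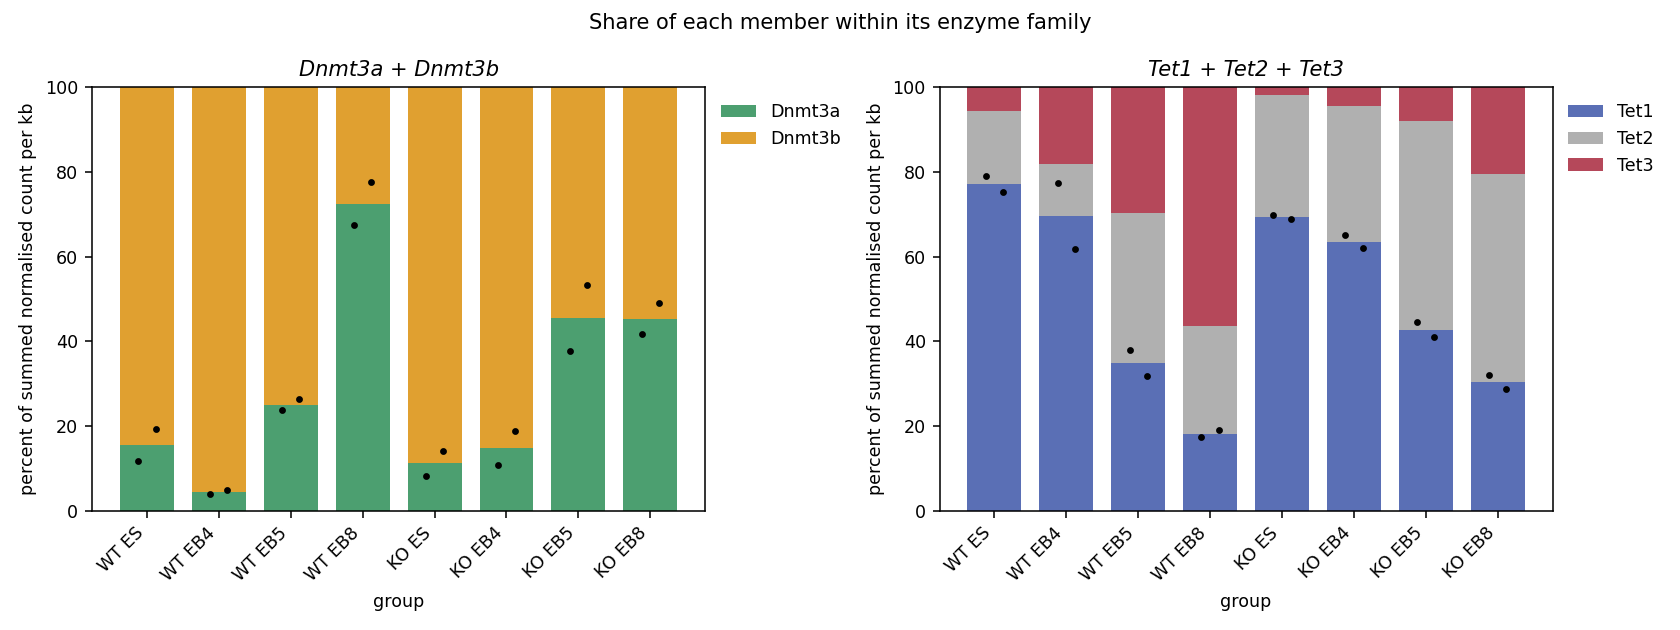
Share of each gene in the summed normalised count per kb of Dnmt3a and Dnmt3b (left) and of the Tet genes (right), in percent, for each of the 8 groups. Bars are means of 2 libraries and dots the 2 libraries of the lowest segment (Dnmt3a or Tet1), with KO on the axis standing for Taf4a-/-. In WT EB8 Tet3 held 56.5% and in Taf4a-/- EB8 20.5%.

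In the wider pathway the genes that passed between the genotypes were most numerous at EB8, as they were among all genes. Of 49 listed genes in 7 groups, 48 were tested, and 0 passed in ES cells (0.0% of all genes), 2 at EB4 (both higher in Taf4a-/-; 6.12%), 2 at EB5 (Zfp57 higher, Cdca7 lower; 4.34%) and 9 at EB8 (1 higher, 8 lower; 22.9%). The median log2 change over the 48 at EB8 was -0.06. At EB4 the 2 genes, named here after their values were seen, were Dppa3 and the imprint-protecting zinc finger gene Zfp57. Neither passed without WT EB4 replicate 1 (2.38 and 1.73) or Taf4a-/- EB4 replicate 2 (2.87 and 1.61), and Dppa3 also not without WT EB4 replicate 2 (3.43) or Taf4a-/- EB4 replicate 1 (2.93). Dppa3, which keeps Uhrf1 away from chromatin, was the pathway gene that was higher at EB8: its counts were 16.8 and 102 in WT and 1399 and 659 in Taf4a-/- (log2 4.49, limma adjusted p = 0.00140). Among the other partners of maintenance, Cdca7, which works with the remodeller Hells, was lower at EB8 (4719 and 4576 in WT, 2152 and 2602 in Taf4a-/-; -0.97, adjusted p = 0.00345), and 4 of the 6 did not pass. Among 6 Tet partners and enzymes of 2-oxoglutarate supply, Cxxc4, a CpG-binding antagonist of Tet2, had 660 and 664 in WT EB8 and 47.5 and 66.0 in Taf4a-/- (-3.54, limma adjusted p = 0.000717). Idh1 was lower too (-1.40), and the other 4 did not pass. Of 11 base excision repair genes 1 passed, the uracil glycosylase gene Smug1 (-1.94), and of 4 tested Gadd45 and deaminase genes 1, Gadd45g (-2.34). The others were Mbd3 of 7 methyl-CpG binding genes (-0.70, or -0.54 and -0.60 without WT or Taf4a-/- EB8 replicate 2, when it did not pass), and the histone methyltransferase genes Ehmt1 (-0.67) and Ehmt2 (-0.69, or -0.51 and -0.56 without the same libraries, when it did not pass) of 7 genes of imprint and retroelement silencing. None of the 7 methyl donor cycle genes passed between the genotypes at any stage.

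In WT cells from ES to EB8, 25 of the 48 pathway genes passed (12 higher, 13 lower), against 46.8% of all genes (24.0% higher, 22.8% lower). In Taf4a-/- cells 26 passed (6 higher, 20 lower), against 37.7% of all genes (19.7% higher, 18.0% lower). Methyl-CpG readers were among those that rose in WT, with Mbd2 and Zbtb4 higher by 1.27 and 1.95 on the log2 scale. Hells and Trim28, the corepressor of KRAB zinc finger proteins, fell in WT (log2 -1.37 and -1.18), and Uhrf2, the paralogue of Uhrf1, rose by 1.17. Smug1 rose by 3.40 and Cxxc4 by 5.64. Of 7 genes of the methyl donor cycle, 3 fell in WT (Ahcy by 1.64, Shmt1 by 1.32 and Mat2a by 0.90) and 0 rose. In Taf4a-/- cells 5 fell and 1 rose (Mtr). Of all genes, 22.8% were lower in WT, and 18.0% were lower and 19.7% higher in Taf4a-/-. The rise of Mtr did not pass without either Taf4a-/- ES replicate (0.45 and 0.35) or either Taf4a-/- EB8 replicate (0.33 and 0.47). Nor did it pass without the filter on low values or when only the groups compared were fitted. The fall of Mat2a did not pass without WT ES replicate 1 (-0.59) or WT EB8 replicate 2 (-0.47).

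Of 11 tested germline genes known to be silenced by promoter methylation, 8 were higher in Taf4a-/- than in WT cells at EB8. The other 3 did not pass, and 10.4% of all genes were higher. Like the other lists, this one was chosen with earlier results of these data known, so its count is a description. The list held 12 genes, and between the genotypes 0 passed in ES cells, 0 at EB4, 1 at EB5 (Stk31, higher, which did not pass without WT EB5 replicate 2 or either Taf4a-/- EB5 replicate, with 1.32, 2.46 and 1.78) and 8 at EB8 (8 higher, 0 lower), with a median log2 change at EB8 of 3.28 over the 11 and -0.03 over all genes (22.9% passed). Without WT EB8 replicate 2 the count at EB8 was 3, without Taf4a-/- EB8 replicate 1 it was 3, and without Taf4a-/- EB8 replicate 2 it was 4. The 12 genes summed to 1014 and 448 in the WT EB8 libraries and 3673 and 4211 in Taf4a-/-. Pluripotency markers moved with them at EB8, with 7 of 8 higher (10.4% of all genes were). They summed to 1710 and 2094 in WT and 25385 and 29778 in Taf4a-/-, and their part in this result was not tested. Stk31 had 60.9 and 73.1 in WT and 738 and 720 in Taf4a-/- (log2 3.43, limma adjusted p = 0.000605), Hormad1 16.8 and 10.6 against 149 and 280 (3.84, adjusted p = 0.00532), and Asz1 3.2 and 0 against 34.8 and 52.2 (4.42, adjusted p = 0.0279). Asz1 in WT was at the floor of a few reads, so its change depends on the pseudocount (6.23 with 0.1, when it did not pass), and it did not pass without WT EB8 replicate 2 (3.40) or either Taf4a-/- EB8 replicate (4.71 and 4.14). Its adjusted p ran from 0.0184 to 0.177 over the alternatives. Between ES and EB8, 6 of the 11 fell in WT, among them Hormad1 (log2 -4.18), and 0 rose, and 3 rose in Taf4a-/- (Dazl, Asz1 and Brdt) and 0 fell, where 22.8% of all genes were lower in WT and 19.7% higher in Taf4a-/-. Without WT EB8 replicate 2 the WT count was 3, and without Taf4a-/- ES replicate 1 or either Taf4a-/- EB8 replicate the Taf4a-/- count was 1. These genes were counted as RNA, and DNA methylation itself was not measured.

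**Figure D4:**
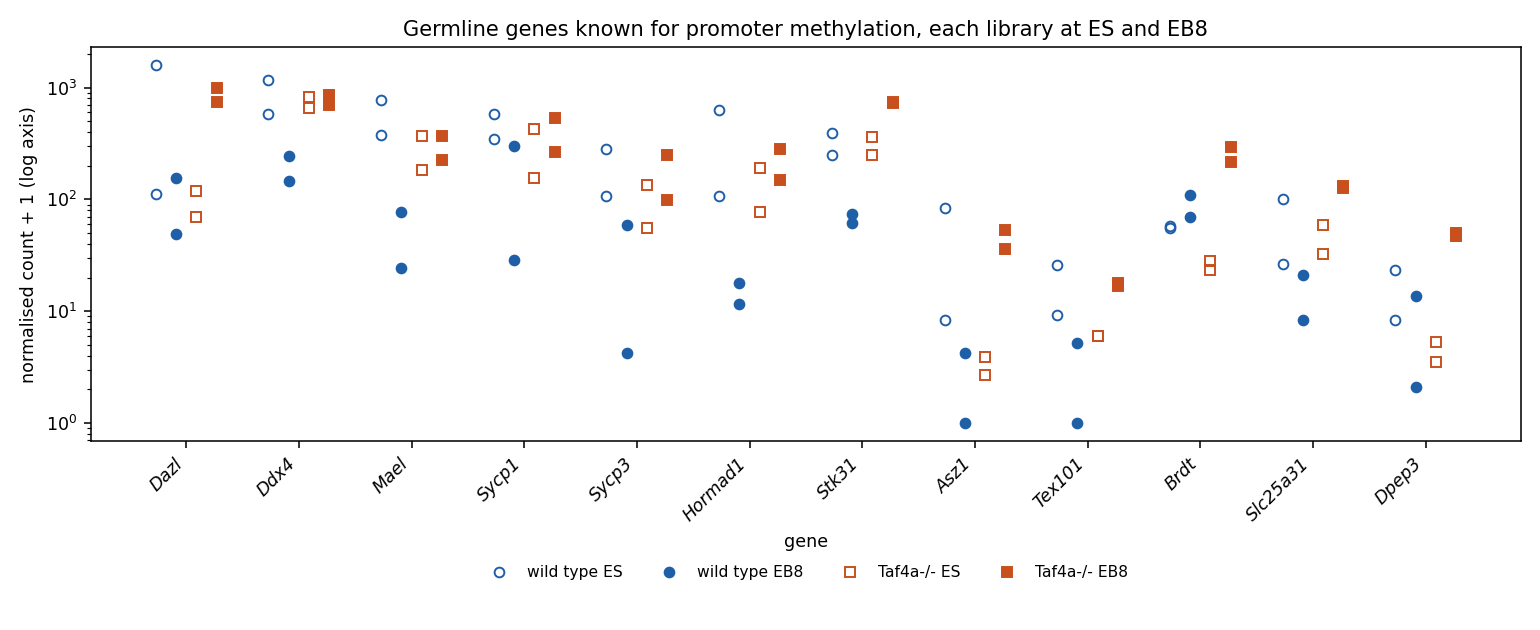
Normalised count + 1 (log axis) of 12 germline genes in each library at ES (open) and EB8 (filled), with WT in blue circles and Taf4a-/- in orange squares. In all but Sycp1 both Taf4a-/- EB8 libraries lie above both WT EB8 libraries.

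Some members moved together over the 16 libraries, which share stages, genotypes and scaling, so the correlations are descriptions. On log2 values Tet1 went with Uhrf1 (Pearson r = 0.93) and Dnmt3l (0.87) and against Tet3 (-0.83), and Dnmt3l went against Tet3 (-0.86). Among all tested genes the closest in pattern to Dnmt3l were Dusp27 (r = 0.97), Rps6ka1 (0.97) and 4930519F16Rik (0.97). Those closest to Tet1 were Zbtb8a (0.98), Dnajc21 (0.98) and Dbf4 (0.97), and to Dnmt3b Pim2 (0.98), Fbxw17 (0.97) and Rbpms2 (0.96). For Tet3 they were Wbp1 (0.96), Loxl3 (0.95) and Enox (0.95), of which Wbp1 and Loxl3 lie on chromosome 6 with it. Uhrf1 was closest to Uba2, Timm8a1 and Pwp2 (each 0.97), and Dnmt1 to Dhx30 (0.95), E2f8 (0.94) and Gtf3c2 (0.92). The likeness was weaker for Tet2, with Zfp654 (0.90), 1300002E11Rik (0.89) and Brpf3 (0.86), and for Dnmt3a, with Ryr3 (0.85), Zfp143 (0.82) and Il1rl2 (0.80).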

How the data were processed

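The data are 16 polyA RNA-seq libraries, 2 for each of 8 genotype and stage groups. Per the labels and the study's methods, libraries were made with an unstranded TruSeq v2 kit and sequenced single-end, and reads were aligned to mm9 with TopHat2 2.0.10, counted per gene with HTSeq 0.5.4p3 and normalised with DESeq2 1.0.19 (CASAVA 1.7 and 1.8 are also named). The annotation release and the strand setting of the counting are not given in the sources used here. The deposited values are each gene's read count divided by the size factor of its library, a normalised signal. All values (100.0%, within 0.01 reads) were whole multiples of what 1 read is worth in their library (0.715 to 1.28), so whole reads were recovered. Depth is the sum of these.

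The main test was limma 3.58.1 (R 4.3.3) on log2(normalised count + 1) with the 8 group means over all 16 libraries, for 16124 genes with a mean of at least 10, with Benjamini-Hochberg adjustment over all of them. edgeR 4.0.16 and DESeq2 1.42.0 on the recovered reads were alternatives. By edgeR, 363 genes were higher and 448 lower in Taf4a-/- at EB4, 298 and 305 at EB5, 1622 and 1924 at EB8, and 0 in ES cells. The fits were tested on simulated counts with known changes, in several draws: limma and edgeR held the share of false calls near the threshold on average, while DESeq2 exceeded it. Unlike the data, these draws gave every gene the same dispersion and placed changes only at Taf4a-/- EB8. They therefore do not show the share of false calls in the data. A log2 change on this scale understates that of low genes. The members, gene lists and comparisons were chosen with earlier results of these data known. For each list, up to 3 genes with the largest change among those past the threshold were to be named at EB8 and from ES to EB8, and the 3 genes most alike to each member by Pearson correlation. Genes named outside this rule, for small counts at other stages or in Taf4a-/-, were chosen after their values were seen. A pathway gene that the rule would name is not reported here. Positions come from GENCODE M1 on mm9, where 27603 identifiers were found and 204 were not. Levels per kb used merged exon length.

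Same-numbered libraries deviated together within Taf4a-/- (correlations of 0.233 to 0.422 over 6 pairs of groups) and among the WT embryoid bodies (0.523 to 0.605 over 3), but not between WT ES cells and WT embryoid bodies (-0.179 to -0.048).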

Additional observations from a re-analysis of the deposited data

Results flagged for a closer look

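Dnmt3l had a difference between the genotypes in its course from ES to EB8 of 4.84 on the log2 scale by the interaction term of the limma fit: it fell by 6.97 in WT cells and by 2.14 in Taf4a-/- cells. Dnmt1 had a difference of -0.92 in the same test, having changed by 0.09 in WT and by -0.83 in Taf4a-/- cells. The Dnmt1 difference did not pass under upper-quartile rescaling (-0.72) or when only the groups compared were fitted. Without 1 library it was -1.11 to -0.72, and it did not pass in most of these fits. Each group held 2 libraries, too few for a test of whether a library stands apart within its group.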

How the results depend on the processing

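From ES to EB8 the counts of members passing (5 in WT, 6 in Taf4a-/-) were within 1.5 times under every alternative run, and Dnmt3l passed between the genotypes at EB8 in each. The single steps and EB4 and EB5 depended more on the fit. When only the groups compared were fitted, which leaves 2 libraries per group to estimate the spread, 0 members passed between the genotypes at EB4 and EB5, 0 from ES to EB4 in WT and in Taf4a-/-, 1 from EB4 to EB5 in WT and 0 in Taf4a-/-, and 1 each for the genotype difference from EB5 to EB8 and from ES to EB8. DESeq2 gave 1 in ES cells, 5 at EB5, 5 from EB4 to EB5 in WT, 3, 4 and 2 for the Taf4a-/- steps, and 2 and 1 for the genotype difference from ES to EB4 and from EB5 to EB8, and edgeR gave 1 at EB5. Without the filter 1 passed at EB5, with a pseudocount of 5 the counts were 2 for EB4 to EB5 in Taf4a-/- and 1 for the genotype difference from EB5 to EB8, with quantile normalisation 4 from EB5 to EB8 in WT, and with upper-quartile rescaling 1 for the genotype difference from ES to EB8. With the replicate block across genotypes the counts were 5 at EB4, 4 at EB5, 2 from ES to EB4 in Taf4a-/- and 2 for the genotype difference from EB5 to EB8. With the block as a correlation they were 4 from EB5 to EB8 in WT, 3, 4 and 1 for the Taf4a-/- steps and 1 for the genotype difference from EB5 to EB8. With the block within genotype, chosen after seeing the data, they were 1 in ES cells, 5 at EB4, 5 at EB5, 6 at EB8, 5 from EB5 to EB8 in WT, 4, 4 and 1 for the Taf4a-/- steps and 2 for the genotype difference from EB5 to EB8, and the block moved no other count by over 1.5 times. Same-numbered libraries of the 2 genotypes did not deviate together at EB4, EB5 or EB8 (correlations of -0.0575, -0.209 and -0.133). In ES cells they did (0.335), and WT ES also went with Taf4a-/- EB4 (0.281) and EB5 (0.368) but not EB8 (0.0563). Exchanging the Taf4a-/- numbers gave 2 members at EB5 and 3 at EB8.

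Leaving out 1 library gave 0 members in ES cells, 0 to 3 at EB4, 0 to 1 at EB5 and 1 to 2 at EB8, 2 to 3, 1 to 3, 1 to 2 and 5 to 5 for the WT steps and the whole course, 0 to 1, 1 to 2, 0 to 0 and 5 to 6 for those of Taf4a-/-, and 0, 0, 0 and 1 to 2 for the genotype differences. The remaining library of such a group is assumed to vary like the other groups. The count of germline genes at EB8 was 3 to 8 without 1 library, and that of pathway genes 7 to 9, or 14 with upper-quartile rescaling and 14 with quantile normalisation. Over the member changes reported here, 832 of 940 values under settings that kept all libraries had the same direction and side of the threshold. Of the others, 75 newly passed, 26 no longer passed and 7 turned sign. Without 1 library the numbers were 277 of 336, 3, 45 and 11. Changes of members in comparisons not reported for them are not in these numbers.

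Signs of the changes in single members turned only where limma did not pass them, and the turns among the reported changes are given here. Dnmt3b between the genotypes in ES cells was -0.0306 with upper-quartile rescaling, -0.0198 with quantile normalisation, -0.0175 by DESeq2 and -0.0104 by edgeR, and -0.34 to 0.39 without 1 library (below 0 without WT replicate 2 or Taf4a-/- replicate 1). Without 1 library, Dnmt1 at EB4 was -0.13 to 0.17 (below 0 without either genotype's replicate 2), Dnmt3b at EB5 -0.91 to 0.10 (above 0 without Taf4a-/- replicate 2) and Uhrf1 at EB5 -0.0012 to 0.31 (below 0 without WT replicate 1). Uhrf1 at EB8 was 0.0261 with upper-quartile rescaling, 0.0657 with quantile normalisation and -0.24 to 0.0038 without 1 library (above 0 without Taf4a-/- replicate 1). For ES to EB8 in WT without 1 library, Dnmt1 was -0.11 to 0.29 (below 0 without WT ES replicate 2) and Tet2 -0.14 to 0.13 (above 0 without WT ES replicate 2 or WT EB8 replicate 1). Dnmt3a in Taf4a-/- was 0.0271 with quantile normalisation, and the Tet3 genotype difference was -1.35 to 0.0196 without 1 library (above 0 without Taf4a-/- ES replicate 2). With the longest annotated transcript as length, the log2 ratio of Dnmt3b to Dnmt3a was -1.96 in WT EB8 and -0.27 in Taf4a-/- EB8, and that of Tet3 to Tet1 in WT ES cells -3.77. Over all genes, upper-quartile rescaling moved the split of the genotype difference from ES to EB8 from 620 higher and 555 lower to 908 and 424, and quantile normalisation that from EB5 to EB8 from 16 and 110 to 43 and 125.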
